A study of Homo sapiens with 8 samples.

Results

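The comparison described here set the 22Rv1 array of cells kept in actinomycin D together with caffeine against the 22Rv1 array of cells kept in actinomycin D alone. Its members are the probe sets with a log2 signal of at least 4 on either array, which were 21703 of the 54675 on the chip. They gave 10823 of the 19775 genes that have a probe set of their own, and 10356 of these genes reached the floor of 4 on both arrays. 22Rv1 is an established prostate carcinoma line derived from a xenograft, and mRNA was measured with Affymetrix U133 Plus 2.0 arrays, 4 for this line and 4 for the prostate cancer line LNCaP. For each line 1 plate was left untreated and 3 plates received 10 mM caffeine for 4 hours. The caffeine medium was then washed off a pair of those plates, and both then spent 4 hours in 2 μg/ml actinomycin D, 1 with fresh 10 mM caffeine and 1 without it. Both arrays compared here therefore come from cells that had already been through a caffeine step, and neither represents untreated cells. Each treatment has a single array, so no difference below has a replicate check and no test or p-value is given. The array number limits the precision, and the size of a technical error is given instead from other probe sets of the same gene and from control probe sets.

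Nonsense-mediated mRNA decay (NMD) is a translation-dependent pathway that removes mRNAs with a premature stop codon, together with natural substrates such as mRNAs with upstream open reading frames and transcripts that host small nucleolar RNAs. It depends on the helicase UPF1 and on its kinase SMG1, which belongs to the family of large kinases that caffeine inhibits. Actinomycin D stops transcription, so an mRNA that is still being degraded loses signal while the drug is present. The comparison asks which mRNAs kept a higher level when caffeine was present during that step. The signals are relative to the other transcripts on an array, so a loss common to all mRNAs is not seen in them, and in bulk RNA fewer cells with a transcript cannot be told apart from less of it per cell.

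Most genes had nearly the same signal on both arrays. The difference (log2 signal with caffeine minus log2 signal without it, where 1 is 2-fold) had a median of -0.02, quartiles of -0.22 and 0.22 and an SD of 0.46 over the detected genes, and 80.1% of them lay within 0.5 of 0. Among probe sets, 812 were higher with caffeine by at least 1 (3.74%) and 435 were lower by at least 1 (2.00%). Among genes, counted once through the probe set brightest on average, 342 were higher (3.16%) and 131 were lower (1.21%), so that 72.3% of the genes past the cut-off were higher. That split depended on the scale: it was 97.0% after the arrays were scaled on the poly-A control probe sets and 46.4% after scaling on the hybridization control probe sets. The excess of higher over lower genes is therefore no firmer than the choice of scale, and the order of the genes does not depend on it. At a difference of at least 2 there were 41 higher and 6 lower genes, and at 3 there were 5 and 0. The cut-off sits in a continuous distribution: 84 of the higher genes lay within 0.1 above it and 116 genes within 0.1 below it, as with CENPL at 1.0002 and CCNT1 at 0.99. On the low side AMIGO1 was at -1.002 and counted, and the decapping scaffold gene EDC3 just failed to reach it.

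**Figure D1:**
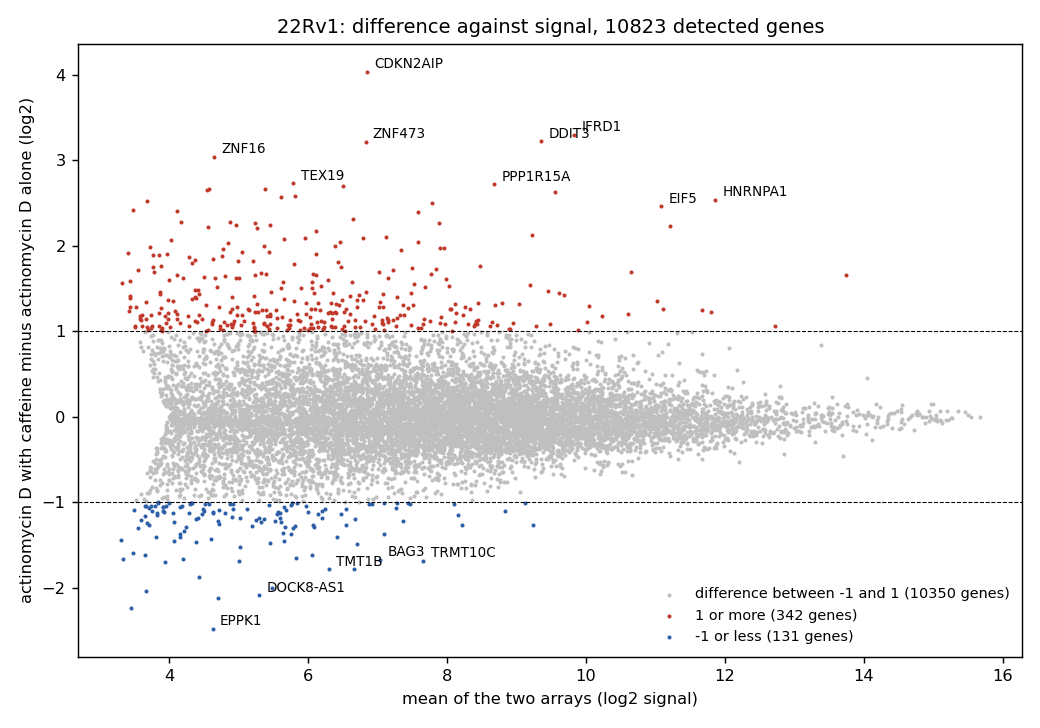
Difference between the 2 actinomycin D arrays of 22Rv1 (with caffeine minus without, log2) against the mean log2 signal of both arrays, 1 point per detected gene. Red points are the 342 genes at 1 or more, blue points the 131 at -1 or less, dashed lines mark the cut-off, and the highest points reach 4.04 at the top and -2.48 at the bottom.

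Control probe sets gave shifts measured outside the comparison of genes. The 18 hybridization control probe sets, for labelled RNA added just before hybridization, had a mean difference of 0.17 (SD 0.08). The 24 poly-A control probe sets, for bacterial transcripts added to the RNA before labelling, were all lower on the array with caffeine, at a mean of -0.41 (SD 0.26). Their mean signal was 7.06 in untreated cells, 6.798 after caffeine, 7.57 in actinomycin D with caffeine and 7.97 in actinomycin D alone. Their difference was -0.67 at the 5′ end, -0.38 in the middle and -0.17 at the 3′ end of the spiked transcripts. The 3 probe sets for 18S rRNA, which has no poly-A tail, read 7.08 on average with caffeine and 6.00 without it, a mean difference of 1.08. Their means were 5.09 in untreated cells and 5.17 after caffeine, so both actinomycin D arrays carried more of this signal. The same difference was 5.45 in LNCaP, whose array with actinomycin D and caffeine stood apart from the other LNCaP arrays. Whether these shifts had a part in any difference below was not tested.

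**Figure D2:**
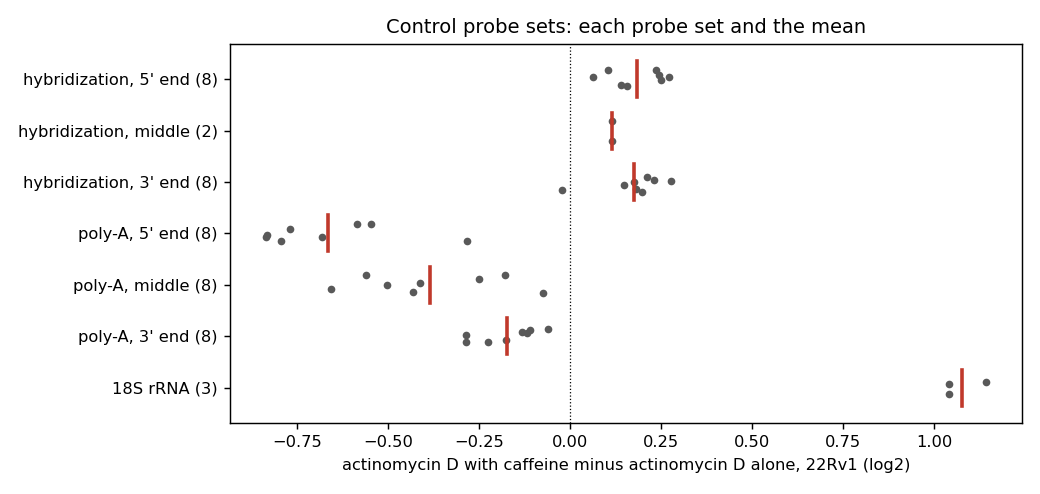
Differences of the control probe sets between the 2 actinomycin D arrays of 22Rv1 (with caffeine minus without, log2), 1 point per probe set, with the number of probe sets in brackets and the mean as a red line. The poly-A controls lie below 0 and furthest at the 5′ end (-0.67), the hybridization controls average 0.17, and 18S rRNA averages 1.08.

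The cells carried luminal prostate markers on both arrays. The 8 measured luminal markers were all detected, among them KLK2 (10.68 with caffeine and 10.25 without), KLK3 (9.12 and 9.32), HOXB13 (9.09 and 9.40) and KRT18 (13.31 and 13.27). Their differences ran from -0.30 to 0.43. The basal keratin genes KRT5, KRT14 and KRT15 were below the floor on both arrays. Of 8 measured neuroendocrine markers 5 were detected, among them ENO2 (10.66 with caffeine and 10.96 without), CHGB (7.74 and 8.54) and SYP (6.38 and 6.17). Of 13 markers of stroma, vessel and blood 5 were detected, with the endothelial and leukocyte genes PECAM1, CDH5, VWF and PTPRC below 3 on both arrays. These 5 included VIM (11.25 and 11.30) and the matrix genes LUM (10.04 and 9.97), COL1A1 (8.49 and 7.96) and DCN (6.49 and 7.06). The probe sets of the matrix genes disagreed. Others were below the floor, at 2.40 and 2.43 for LUM, 2.38 and 2.31 for DCN and 2.27 and 2.27 for COL1A1. Further ones were detected for COL1A1 (such as 6.83 and 6.68) and DCN (such as 5.48 and 5.56). The level of these matrix genes is therefore uncertain. COL1A2 and COL3A1 were below the floor.

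The highest differences belonged to growth arrest, stress and zinc finger genes whose signal was high after the first caffeine step, stayed near that level where caffeine stayed and was low in actinomycin D alone. CDKN2AIP, which encodes a binding partner of the ARF tumour suppressor and a regulator of the p53 pathway, read 6.41 in untreated cells, 9.03 after caffeine, 8.87 in actinomycin D with caffeine and 4.83 in actinomycin D alone. Its difference of 4.04, or 16.4-fold, was the largest of the detected genes. IFRD1, a transcriptional co-regulator whose mRNA carries an upstream open reading frame, read 9.14, 11.80, 11.48 and 8.18 on the same 4 arrays. Its difference was 3.30, and its 2 other detected probe sets gave 3.61 and 3.73. DDIT3, the stress transcription factor also called CHOP, read 9.01, 11.73, 10.97 and 7.75, a difference of 3.22. PPP1R15A, the phosphatase subunit that reverses eIF2 phosphorylation, read 7.68, 10.78, 10.04 and 7.32. Its difference was 2.72, and its other probe set gave 3.32. In each of these 4 genes the array with actinomycin D and caffeine lay within 0.76 of the caffeine array, and the array with actinomycin D alone lay below the untreated one. ZNF473, a zinc finger protein of the machinery that processes histone mRNA ends, read 7.02, 9.05, 8.43 and 5.22, a difference of 3.22, while its other probe set gave 1.504.

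**Figure D3:**
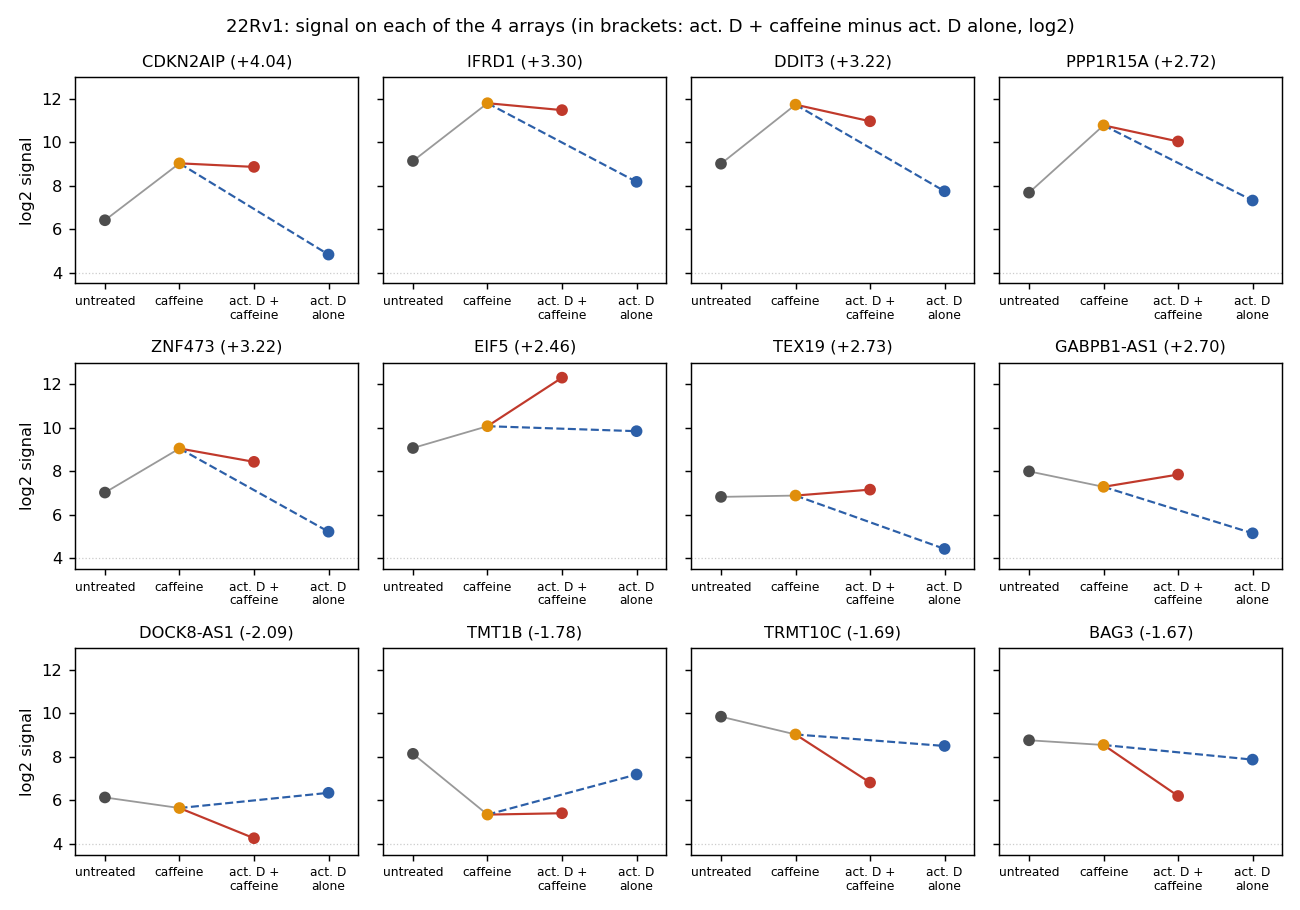
Log2 signals of 12 genes on the 4 arrays of 22Rv1: untreated, caffeine, actinomycin D with caffeine and actinomycin D alone, with the difference between the last 2 in brackets. The solid red line leads from the caffeine array to actinomycin D with caffeine and the dashed blue line to actinomycin D alone, and the dotted line marks the floor of 4. CDKN2AIP, IFRD1, DDIT3 and PPP1R15A stay near the caffeine level on the red line and drop on the blue one, and the representative probe set of EIF5 goes up on the red line from 10.08 to 12.31, which 3 of its other probe sets do not.

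Sequence just before the start of 4 of these genes is shown because their signals took the same course over the 4 arrays. That of EIF5 is shown because the gene is among the study's candidates. ZNF473, TAF1D and HNRNPA1 took a similar course, and their sequences are not shown. The 100 bases upstream of the annotated start follow, 5′ to 3′ on the gene's own strand, from RefSeq on GRCh38.p14. Capitals mark a match on either strand to the cAMP response element TGACGTCA, the CCAAT box (ATTGG on the opposite strand) or the ETS motif CCGGAAG.
CDKN2AIP (chr4:183444536-183444635, plus strand): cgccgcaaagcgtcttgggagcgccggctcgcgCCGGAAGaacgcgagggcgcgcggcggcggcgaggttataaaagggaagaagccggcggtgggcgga
IFRD1 (chr7:112450408-112450507, plus strand): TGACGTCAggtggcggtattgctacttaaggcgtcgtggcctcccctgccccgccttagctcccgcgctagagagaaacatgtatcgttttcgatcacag
DDIT3 (chr12:57520515-57520614, minus strand): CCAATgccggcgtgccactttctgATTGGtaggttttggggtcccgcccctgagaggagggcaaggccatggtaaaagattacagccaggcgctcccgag
PPP1R15A (chr19:48872321-48872420, plus strand): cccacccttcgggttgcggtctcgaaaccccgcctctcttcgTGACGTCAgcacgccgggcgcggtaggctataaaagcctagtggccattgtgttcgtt
EIF5 (chr14:103334137-103334236, plus strand): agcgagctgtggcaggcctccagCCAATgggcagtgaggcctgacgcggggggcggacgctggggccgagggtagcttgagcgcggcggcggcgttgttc
IFRD1 and PPP1R15A each hold the full cAMP response element, DDIT3 holds 2 CCAAT boxes in opposite orientation, EIF5 holds 1, and CDKN2AIP holds an ETS motif. Other motifs searched are not marked: TATAAA stands in CDKN2AIP and PPP1R15A, and GGGCGG, on either strand, in CDKN2AIP, DDIT3 and EIF5. In the same 100 bases TAF1D holds an ETS motif. CLK1, EFNA1, RGMB, GABPB1-AS1 and ZNF143-AS1, also among the highest genes, hold none of the marked motifs. Such matches are a description of the letters and no evidence of binding. Over windows of 250 bases before to 50 bases after the start, the cAMP response element stood in 3.66% of the 273 higher genes that had a promoter sequence, against 3.44% of 8904 detected genes and 1.98% of all 27305 promoters. A CCAAT box stood in 48.0% of the higher genes, 37.6% of the detected genes, 30.3% of the 99 lower genes with a sequence and 35.7% of all promoters. These were 2 of 8 motifs searched, and no test was made. The others, each as a share of higher and of detected genes, were CCGGAAG (23.1% and 20.4%), the GC box GGGCGG (73.6% and 71.7%), the NRF1 motif GCGCATGC (5.86% and 5.72%), the E-box CACGTG (9.16% and 10.9%), TATAAA (5.86% and 5.07%) and the ATF4 and CEBP motif TGATGNAA (1.83% and 1.56%).

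The probe sets of EIF5 differed in their course. EIF5, the initiation factor that helps select the start codon, was represented by a probe set that read 9.07 in untreated cells, 10.08 after caffeine, 12.31 in actinomycin D with caffeine and 9.85 in actinomycin D alone. That signal with both drugs (actinomycin D and caffeine) was 2.23 above the caffeine array. In 3 of its other probe sets the signal with both drugs lay near the caffeine array, as with 9.02, 10.94, 10.90 and 8.15 in 1 of them. The difference of the representative was 2.46, and the 4 other detected probe sets ran from 1.35 to 2.75. HNRNPA1, an abundant splicing factor, read 12.003, 13.18, 13.13 and 10.59, a difference of 2.54, with 1.12 and 3.52 from its other probe sets. HNRNPA1 has many processed pseudogenes, so its probe sets may share signal with them and its value is uncertain.

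TEX19 and 2 antisense transcripts were not higher after the first caffeine step. TEX19, a germ cell gene, read 6.82 untreated, 6.88 after caffeine, 7.16 with actinomycin D and caffeine and 4.42 with actinomycin D alone, a difference of 2.73. The antisense transcript GABPB1-AS1 read 7.997, 7.28, 7.85 and 5.15, a difference of 2.70, with 2.11 for its other probe set. ZNF143-AS1, also antisense, read 5.74, 5.87, 7.11 and 4.53, a difference of 2.58. In these 3 genes caffeine alone gave between -0.71 and 0.13, and the gap appeared in actinomycin D. BRF2, a subunit of the RNA polymerase III initiation factor, and RGMB, a co-receptor for bone morphogenetic proteins, lay below their caffeine level on both actinomycin D arrays. BRF2 was at 6.72 with caffeine and 4.05 without, a difference of 2.67 (1.33 for its other probe set). RGMB was at 6.90 and 4.32, a difference of 2.58, although its other probe set gave 0.12. EFNA1, an ephrin ligand, was at 10.87 and 8.24, a difference of 2.63, CLK1 at 9.03 and 6.53, and TAF1D, a subunit of the RNA polymerase I selectivity factor, at 8.78 and 6.38. The next 5 genes led among those below the floor without caffeine, where the size of a difference rests on a signal near background. These were ZNF16 at 3.04, ZNF519 at 2.67, the growth arrest gene GADD45G at 2.65, the nuclear receptor co-activator NCOA5 at 2.52 and the copper chaperone COX17 at 2.43. In all, 87 of the 342 higher genes were below the floor without caffeine.

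The lower genes included antisense transcripts, a methyltransferase, an amino acid transporter and 2 co-chaperones, and none was lower by 3 or more. Their median signal was 4.32 with caffeine and 5.67 without it, against 6.67 and 5.23 for the higher genes, and 54 of the 131 were below the floor with caffeine. DOCK8-AS1, an antisense transcript, read 6.13 untreated, 5.64 after caffeine, 4.25 in actinomycin D with caffeine and 6.34 in actinomycin D alone, a difference of -2.09. OTUD6B-AS1, another antisense transcript, read 6.89, 4.72, 4.48 and 6.48, a difference of -2.01, while its other probe set gave 0.27. TMT1B, a thiol methyltransferase, read 8.14, 5.34, 5.40 and 7.19, a difference of -1.78. In OTUD6B-AS1 and TMT1B the signal was low after caffeine, stayed low where caffeine stayed and was higher in actinomycin D alone. The other probe set of OTUD6B-AS1 had no such rise, at 4.27 after caffeine and 4.25 in actinomycin D alone. SLC7A5, the large neutral amino acid transporter, took the course of TMT1B with 6.67, 5.34, 4.996 and 6.65 (-1.65). So did the mitotic kinase NEK6 with 6.58, 5.50, 5.25 and 6.87 (-1.62). Signals are relative and actinomycin D was present, so whether these rises are a gain of transcript was not tested. TRMT10C, a subunit of mitochondrial RNase P, read 9.85, 9.03, 6.82 and 8.50, a difference of -1.69, and the co-chaperone BAG3 read 8.76, 8.55, 6.20 and 7.87, a difference of -1.67. Both were lowest with both drugs, and their caffeine step was -0.82 for TRMT10C and -0.22 for BAG3. HAPLN2, a hyaluronan link protein, was at -1.78, BLOC1S4, a factor for lysosome-related organelles, at -1.69 and the transcription factor FOXP2 at -1.52. Among genes below the floor on the array with caffeine, EPPK1, which encodes epiplakin, was at -2.48 (-1.66 and -0.56 for its other probe sets), the ATP-gated channel P2RX6 at -2.24, PABIR1 at -2.12, the sodium-calcium exchanger SLC8A2 at -2.04 and the chemokine CXCL13 at -1.87.

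The course of the higher and lower genes around the caffeine array is given next, with the reminder that both decay steps share that array and that their gap is what chose the genes. Of the 342 higher genes, 273 were lower by at least 1 in actinomycin D alone than after caffeine, and 90 were so in actinomycin D with caffeine. These were 79.8% and 26.3%. In 29 of them (8.48%, against 1.94% of all detected genes) the signal with both drugs was at least 1 above the caffeine array. Over all 10823 detected genes 1028 (9.50%) were lower by at least 1 in actinomycin D alone and 669 (6.18%) in actinomycin D with caffeine. Of the 131 lower genes, 46 (35.1%, against 3.21% of all) were at least 1 above the caffeine array in actinomycin D alone. With both drugs 44 (33.6%, against 6.18% of all) were at least 1 below it.

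Other probe sets of the same gene, which the choice of the representative did not use, gave the technical check. Of 163 other detected probe sets of 108 higher genes, 58 (35.6%) were also at 1 or more, 132 (81.0%) were above 0 and 0 were at -1 or less, with a median of 0.74. Of 35 other probe sets of 26 lower genes, 3 (8.57%) were at -1 or less, 2 were at 1 or more, and the median was -0.19. Among all 7809 other probe sets 3.41% were at 1 or more and 3.33% at -1 or less, 39.0% were above 0, and a probe set departed from its representative by an SD of 0.54. The probe sets of a gene share the array, so this checks the measurement and not the treatment. Probe sets with no single gene symbol gave 202 higher and 43 lower of 3044 detected, and their genes are not named here.

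The first caffeine step was measured on the other pair of 22Rv1 arrays, so it is independent of the difference. Of the 342 higher genes, 119 (34.8%) were at least 1 higher after caffeine than in untreated cells and 8 were at least 1 lower, with a median of 0.62. Over all detected genes 8.05% were higher after caffeine and 5.38% were lower, with a median of -0.01. The share of genes higher in actinomycin D with caffeine went up with the caffeine response, from 1.70% of the genes within 0.5 of 0 to 12.8% between 1 and 2 and 17.7% of the 147 genes above 2. Of the 131 lower genes 30 (22.9%) were at least 1 lower after caffeine and 14 (10.7%) at least 1 higher, with a median of -0.33. At the level of probe sets 29.6% of those higher were higher after caffeine too, against 8.60% of all, and 31.0% of those lower were lower after caffeine, against 6.59%.

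**Figure D4:**
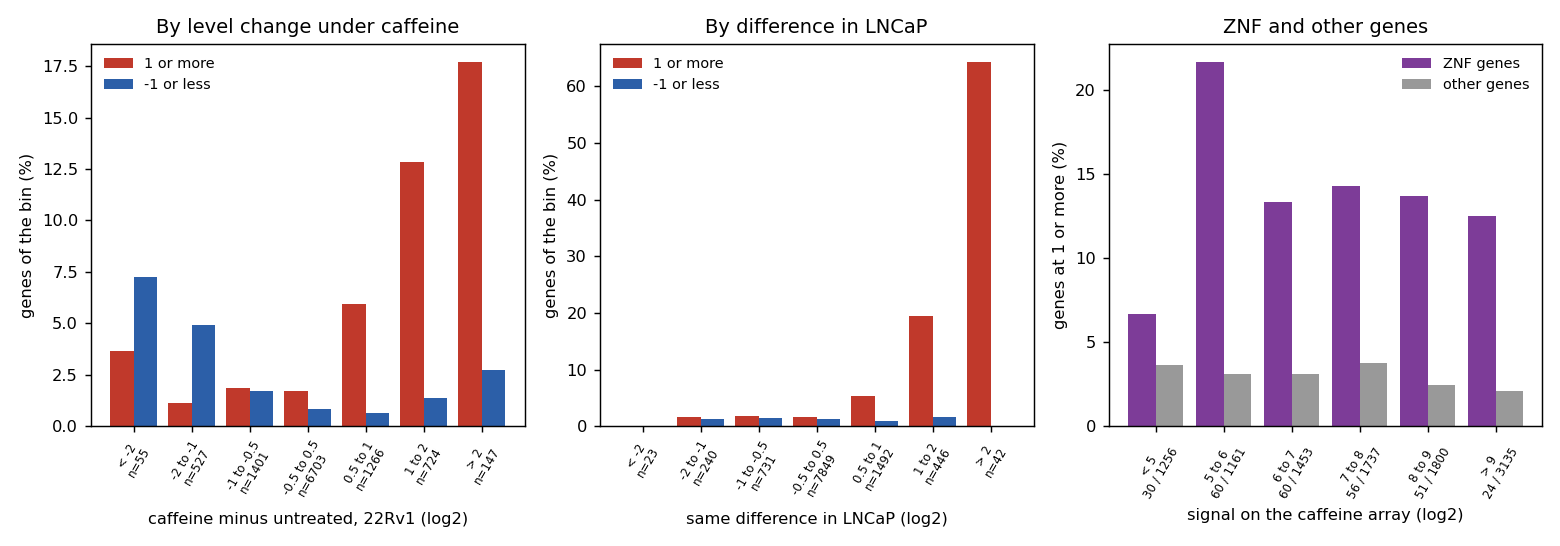
Share of 22Rv1 genes (%) at a difference of 1 or more (red) or -1 or less (blue), by the change from untreated to caffeine in 22Rv1 (left) and by the same difference in LNCaP (middle), and share of ZNF and other genes at 1 or more by signal on the caffeine array (right), with the number of genes in each bin under it. The red share reaches 17.7% in the highest bin on the left and 64.3% in the middle, and ZNF genes lie above other genes in all 6 signal bins.

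LNCaP gave the same comparison on other arrays. Of the 342 genes, 114 (33.3%) were at least 1 higher with caffeine in LNCaP too, and 4 were at least 1 lower. Among the 293 of them detected in LNCaP the share was 38.9%, and the 114 genes were 20.0% of the 569 higher in LNCaP. Over all genes detected in 22Rv1, 4.51% were higher in LNCaP and 2.43% lower. Of the 42 genes whose difference in LNCaP was above 2, 27 (64.3%) were among the higher genes of 22Rv1. Of the 131 lower genes, 3 were at -1 or less in LNCaP and 7 at 1 or more. Among probe sets, however, 19.3% of those lower in 22Rv1 were lower in LNCaP, against 4.82% of all. Since the LNCaP array with both drugs stood apart by its 18S rRNA signal, differences between the lines carry that array as well.

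In 41 of the higher genes all 3 measures were at 1 or more: the difference, the caffeine step in 22Rv1 and the difference in LNCaP. They included CDKN2AIP, IFRD1, DDIT3, ZNF473, PPP1R15A, GADD45G, EFNA1, HNRNPA1, CLK1, EIF5, COX17 and TAF1D from the genes above. The following genes of the 41 were named after their values were seen. EPC1, a subunit of the NuA4 acetyltransferase, read 7.21 untreated, 8.53 after caffeine, 6.58 with both drugs and 4.33 in actinomycin D alone, a difference of 2.24 with 3.72 in LNCaP. LSM11, a component of the U7 particle that processes histone mRNA, read 6.32, 8.14, 7.86 and 6.17, a difference of 1.69, and HINFP, a transcription factor for histone H4 genes, had 1.26. The tumour suppressor ING1 had 1.58, the bromodomain gene BRD2 1.13, and JAK1, a kinase of cytokine receptors, 1.07 after a caffeine step of 3.39. In 32 higher genes detected on both arrays, by contrast, the caffeine step and the difference in LNCaP were both within 0.5 of 0. TEX19 led them, and others, also named after their values were seen, were the pseudogene UBBP1 at 2.31, the transcription factor SNAI2 at 1.83, the pseudouridine synthase gene PUS3 at 1.82 and the keratin gene KRT19 at 1.23. SNAI2 read 9.54 untreated and 9.54 after caffeine, then 6.13 with both drugs and 4.30 in actinomycin D alone, and KRT19 read 12.87, 12.38, 12.41 and 11.18. SNAI2 and KRT19 were below the floor on both actinomycin D arrays of LNCaP.

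Between the lines, the 5 genes named first had gaps that turned on the LNCaP arrays. The mitotic gene TOP2A was at 0.49 in 22Rv1 and -2.89 in LNCaP, the septin gene SEPTIN7 at 0.00 and -3.09, ERBIN at 0.03 and -2.93, IFT81 at 0.30 and -2.55 and LINC00960 at 0.01 and -2.82. None of these 5 departed by more than 0.5 in 22Rv1. Other probe sets detected in 22Rv1 did not show the fall in LNCaP. They gave -0.12 for TOP2A, -0.10 and -0.04 for SEPTIN7 and -0.04 for ERBIN, so these gaps rest on the representative probe set. In the other direction ABT1, a ribosome biogenesis factor, was at -1.06 in 22Rv1 and 1.79 in LNCaP, FNDC10 at -1.11 and 1.304, and the HLH inhibitor ID3 at -1.11 and 1.08. IRF1 was at -0.15 and 2.24 and PHF12 at -0.16 and 2.13. In ABT1, FNDC10 and ID3 both lines departed, while IRF1 and PHF12 departed mainly in LNCaP. EPPK1, below the floor with caffeine in 22Rv1, was not ranked with them. Its gap in this direction was wider, at -2.48 in 22Rv1 and 0.76 in LNCaP, and lay mainly in 22Rv1. With 1 array per treatment the gap between the lines was not tested.

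Zinc finger genes of the ZNF series gave more higher genes than any other list, and were also the list with the most detected members. They encode mostly DNA-binding repressors, and their mRNAs are generally short-lived. Of the 281 detected (of 466 on the chip), 41 were higher by at least 1 (14.6%, against 3.16% of all genes), 0 were lower, and 209 lay above 0. Several smaller lists had larger shares, among them GADD45 and growth arrest genes (41.7%), natural NMD substrates (30%) and stress factors (26.3%). The median difference of the ZNF genes was 0.35, with quartiles of -0.01 and 0.78, beside -0.02 for all genes, and it stayed above 0 under each scaling. ZNF473, ZNF16 and ZNF519 led, followed by ZNF689 at 2.41, ZNF606 at 2.28, ZNF581 at 2.27 and ZNF492 at 2.03. ZNF606 read 3.70 untreated, 5.33 after caffeine, 6.01 with both drugs and 3.73 in actinomycin D alone, and ZNF581 read 8.97, 9.20, 9.01 and 6.74. ZNF689 read 6.20, 6.63, 5.32 and 2.91, so its last value was below the floor. At each level of signal the share was above that of other genes: it was 6.67% to 21.7% for ZNF genes over 6 bins of signal on the caffeine array and 2.07% to 3.74% for the others. Against the caffeine array 113 of the 281 (40.2%) were at least 1 lower in actinomycin D alone, compared with 9.50% of all genes, and 64 (22.8%) in actinomycin D with caffeine, compared with 6.18%. On the independent arrays, 44 (15.7%, against 8.05% of all genes) were higher after the caffeine step and 7 lower, with a median of 0.18. In LNCaP 31 (11.03%, against 4.51%) were higher and 5 lower, also with a median of 0.18. Of the 41 higher ZNF genes, 12 (29.3%) were at least 1 higher after caffeine in 22Rv1 and 10 (24.4%) at least 1 higher in LNCaP, where all 342 higher genes gave 34.8% and 33.3%. In their promoter windows the ETS motif CCGGAAG stood in 42.3% of 241 detected ZNF genes with a sequence and in 48.7% of 39 higher ones, and a CCAAT box in 47.3% and 61.5%. Many of these genes are close paralogs in clusters, and their probe sets may share signal.

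**Figure D5:**
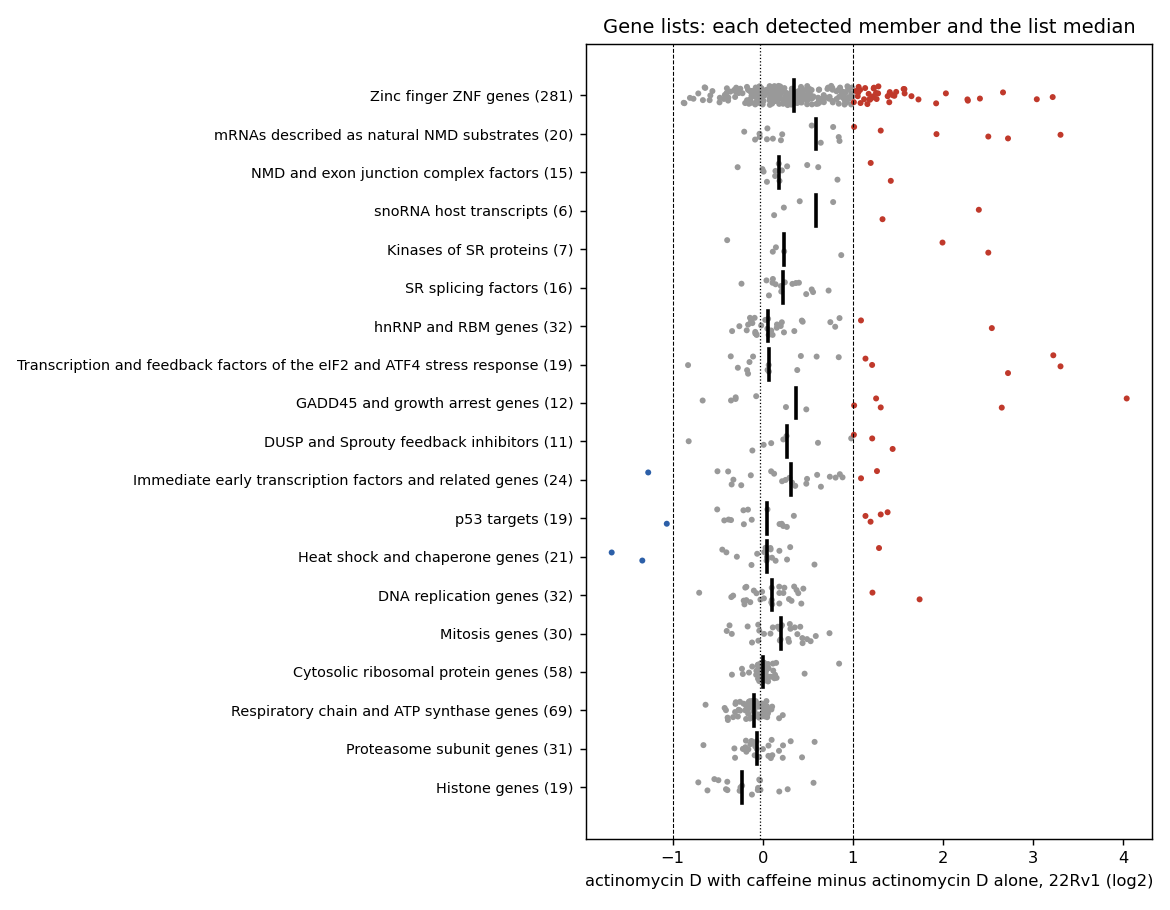
Difference between the 2 actinomycin D arrays of 22Rv1 (with caffeine minus without, log2) for each detected member of 19 gene lists, with the number of members in brackets, the list median as a black bar, the median of all genes as a dotted line and the cut-off as dashed lines. Red points lie at 1 or more and blue points at -1 or less, and the ZNF, NMD substrate and snoRNA host lists have medians of 0.35, 0.59 and 0.60 while ribosomal protein genes are centred on 0.

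Natural NMD substrates had the highest median of the lists with at least 10 detected members. Of 20 detected, 6 were higher by at least 1 (against 3.16% of all genes), 0 were lower, and the median was 0.59. Besides IFRD1, PPP1R15A and CLK1 these were the NF-kB inducing kinase MAP3K14 at 1.93 and the growth arrest genes GADD45A at 1.31 and GADD45B at 1.01. MAP3K14 read 6.28 untreated, 7.29 after caffeine, 6.01 with both drugs and 4.08 in actinomycin D alone. GADD45A read 9.05, 9.58, 9.34 and 8.03. HNRNPDL was at 0.85, with 4 other probe sets between 0.18 and 3.75, ATF4 at 0.84 and the snoRNA host GAS5 at 0.78. The signal of GAS5 was low, at 5.32 with both drugs and 4.54 in actinomycin D alone. The list overlaps the stress, GADD45, splicing kinase and snoRNA host lists, so these are not separate observations. Among the 6 detected snoRNA hosts TAF1D and SNHG17 were higher (33.3%, against 3.16% of all genes), with a median of 0.60, and none was below 0 (lowest 0.13). SNHG17 read 7.90, 9.93, 9.46 and 8.13, a difference of 1.33, and its other probe set gave 1.24.

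The proteins of the pathway had differences of their own. Of 15 detected NMD and exon junction factors 2 were higher (13.3%, against 3.16% of all genes) and 0 lower, with a median of 0.19. PNRC2, which links UPF1 to decapping, read 10.65 untreated, 10.75 after caffeine, 10.39 with both drugs and 8.97 in actinomycin D alone, a difference of 1.42 with 0.54 for its other probe set. SMG6, the endonuclease, read 3.85, 5.43, 4.71 and 3.51, a difference of 1.198, which became 0.71 with signals under 4 set to 4. SMG9 was at 0.83 (1.15 for its other probe set) and UPF1 at 0.62 (-0.44 for its other probe set). Of 38 general mRNA decay factors the deadenylase-associated ligase CNOT4 was higher (1.07, which is 2.63% of the list, against 3.16% of all genes) and none lower, and of 16 genes of the kinases that caffeine can inhibit and of their partners TTI2 was lower (-1.18), with MTOR at 0.77 and ATR at 0.54.

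Among splicing genes, 2 kinases had the largest differences after HNRNPA1. Of 7 detected kinases of SR proteins CLK1 at 2.50 and CLK4 at 1.99 were higher (28.6%, against 3.16% of all genes). CLK3 was at 0.87 and DYRK1A at -0.39. CLK4 read 7.04 untreated, 8.14 after caffeine, 7.38 with both drugs and 5.38 in actinomycin D alone, and its other probe set gave 1.34. The 16 detected SR proteins, many with isoforms that NMD removes, had 0 past the cut-off and a median of 0.23, led by SRSF6 at 0.73 and TRA2A at 0.56. Of 32 hnRNP and RBM genes HNRNPA1 and RBM4 (1.09) were higher (6.25%, against 3.16% of all genes) and 0 lower, with a median of 0.06.

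Differences of stress factors ran from -0.83 to 3.30. Of 19 detected factors of the eIF2 and ATF4 response 5 were higher (26.3%, against 3.16% of all genes) and 0 lower, and the median was 0.07. After IFRD1, DDIT3 and PPP1R15A came EIF2AK3, the endoplasmic reticulum kinase PERK, at 1.21 and SESN2, an mTORC1 inhibitor, at 1.14 (0.55 with signals under 4 set to 4). EIF2AK3 read 7.04 untreated, 9.62 after caffeine, 8.74 with both drugs and 7.53 in actinomycin D alone. ATF4 itself read 12.16, 13.83, 13.81 and 12.96, ATF3 was at 0.60, DDIT4 at 0.42 and HERPUD1 at -0.83. Of the amino acid supply genes under ATF4, SLC38A2 was higher (1.06) and SLC7A5 lower, and the 17 tRNA synthetases held 0 past the cut-off, with a median of -0.05. Among 12 GADD45 and growth arrest genes 5 were higher (41.7%, against 3.16% of all genes): CDKN2AIP, GADD45G, GADD45A, the cell cycle inhibitor CDKN1B at 1.26 and GADD45B. GADD45G, which had 5.28, 8.49, 5.88 and 3.22 on the 4 arrays, was below its caffeine level on both actinomycin D arrays. Among 21 heat shock genes BAG3 and BAG2 (-1.33) were lower (9.52%, against 1.21% of all genes). DNAJB9 at 1.29 was higher (4.76%, against 3.16%), and was also the higher one of the 19 unfolded protein response genes.

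Labile signalling mRNAs had differences of up to 1.44 in the probe sets that represent them. Of 24 immediate early genes the growth factor responsive IER5 (1.27) and KLF10 (1.09) were higher (8.33%, against 3.16% of all genes). EGR3 was lower (-1.27, which is 4.17% of the list, against 1.21% of all genes), and the median was 0.31. EGR3 read 2.65 untreated, 6.33 after caffeine, 5.44 with both drugs and 6.70 in actinomycin D alone, so it remained high where caffeine was withdrawn. NR4A2 was at 0.89 after a caffeine step of 5.69. Of 11 feedback inhibitors of ERK signalling DUSP6 (1.44), SPRY2 (1.21) and DUSP10 (1.01) were higher (27.3%, against 3.16% of all genes). DUSP6 read 4.13, 7.86, 4.59 and 3.15 and SPRY2 read 5.33, 7.68, 4.47 and 3.25, so both lay more than 3 below the caffeine array on each actinomycin D array and the lower value was below the floor. With signals under 4 set to 4, neither DUSP6 nor SPRY2 reached the cut-off. Another probe set gave 2.01 for DUSP6, also below the floor without caffeine, and -0.52 for DUSP10. The 17 cAMP and CREB genes held 0 past the cut-off, with a median of 0.33, and the 11 NF-kB genes 0, with a median of -0.04. Among 19 p53 targets PLK3 (1.39), GADD45A, the phosphatase PPM1D (1.197) and SESN2 were higher (21.1%, against 3.16% of all genes). GADD45A and SESN2 are also counted in lists above. TIGAR was lower (-1.06, which is 5.26% of the list, against 1.21% of all genes), while CDKN1A was at -0.35.

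Single genes stood out of other lists. The BH3 protein gene BCL2L11, also called BIM, was the 1 higher of 12 BCL2 family genes at 2.21, with 6.36 against 4.15, but its 3 other probe sets gave 0.12 to 0.61. CDT1, the replication licensing factor, read 8.08 untreated, 8.29 after caffeine, 8.36 with both drugs and 6.62 in actinomycin D alone, a difference of 1.74 (1.498 for its other probe set), and ORC1 had 1.22, the 2 higher of 32 replication genes (6.25%, against 3.16% of all genes). The arrestin family genes ARRDC3 (2.24) and TXNIP (1.24) were higher of 18 genes of the FOXO and TXNIP group (11.1%, against 3.16% of all genes). Of 11 clock genes BHLHE41 (1.22, or 0.59 with signals under 4 set to 4), BMAL1 (1.18, with -0.21 for another probe set) and CIART (1.03) were higher (27.3%, against 3.16%). BRF2 and TAF1D were the 2 higher of 29 RNA polymerase I and III genes (6.90%, against 3.16% of all genes). The peptide hormone gene ADM was at 1.51 among 24 hypoxia and glycolysis genes, and the granule protein gene CHGA at 1.63 among the neuroendocrine markers, where the signal without caffeine was 3.69.

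The 4 candidate genes of the study in 22Rv1 were picked on these arrays, partly by the difference itself, so their values are given as a description. The cohesin regulator PDS5B read 5.94 untreated, 8.57 after caffeine, 7.80 with both drugs and 6.36 in actinomycin D alone, a difference of 1.44, with 1.33 for its other probe set and 0.25 in LNCaP. AGO2, the slicing Argonaute, read 3.46, 5.03, 4.92 and 3.01, a difference of 1.91. TTLL7, a tubulin glutamylase, read 3.55, 5.56, 5.07 and 3.67, a difference of 1.40, and both AGO2 and TTLL7 were below the floor untreated and in actinomycin D alone. EIF5 was the strongest in signal. Of 12 Argonaute and microRNA pathway genes AGO2 was higher and TNRC6C lower (-1.12), and of 14 cohesin genes and regulators PDS5B was the 1 higher.

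Housekeeping groups lay near the centre of the scale, which the normalization sets, so their stability was not measured. The 58 detected ribosomal protein genes had a median of 0.00 and a range of -0.34 to 0.85, and 0 of them, of 74 mitochondrial ribosomal protein genes, of 69 respiratory chain genes or of 31 proteasome genes passed the cut-off. Their medians were -0.05, -0.09 and -0.07. Of 19 histone genes 0 passed and the median was -0.23, which became 0.18 with scaling on the poly-A controls. That scaling lifted the median of all genes from -0.02 to 0.38 and brought all 14 list medians that had been below 0 above it. Scaling on the hybridization controls moved all values down by 0.17 instead and left 14 of the 28 positive list medians above 0. Mitosis genes had 0 of 30 past the cut-off and a median of 0.20, DNA replication genes a median of 0.10, and cholesterol synthesis genes 0 of 17 and a median of 0.11. Of 32 translation initiation factors EIF5 was the 1 higher, and of 5 mismatch repair genes 0 passed. By the class of the gene in RefSeq, 25 of 379 long noncoding genes (6.60%) were higher and 8 (2.11%) lower, against 308 of 10279 protein-coding genes (2.996%) and 120 lower.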

How the data were processed

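mRNA of 22Rv1 and LNCaP cells was measured with Affymetrix U133 Plus 2.0 arrays, with 1 array for each of 4 treatments and 2 cell lines, 8 in all. The authors background corrected and quantile normalized the arrays and summarised each probe set with gcRMA, and the deposited values are log2 signals. RMA and GCRMA are named in the submitters' processing notes, and their versions are not given in the sources used here. Each array holds the same distribution of values (median 2.75, upper quartile 6.21), so a change common to all mRNAs is removed.

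The array of actinomycin D with caffeine minus that of actinomycin D alone was taken for probe sets with a log2 signal of at least 4 on either array. Genes come from the annotation of the array, with 41097 probe sets of 1 symbol, 1801 of several and 11777 of none, and 41043 of the first kind matched the RefSeq table of GRCh38.p14. A gene is its probe set with the highest mean over the 8 arrays. Higher and lower mean a difference of at least 1 either way. Over all detected genes 3.16% were higher and 1.21% lower, and each count of a list is to be read beside these shares. With 1 array per treatment no test was possible, so counts, medians and differences are descriptions. Counting was tested on simulated data.

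The comparison, its members and the gene lists were chosen with earlier results of these data known. Genes were named by a rule: the 15 highest and 10 lowest of the genes at 4 or more on both arrays, the 5 highest and 5 lowest with 1 array below it, in each list the 4 of largest difference (more where its genes are taken singly), the 5 each way that differ most from LNCaP, and the study's 4 candidates in 22Rv1. Others are marked where they are named. The 5 each way leave out genes with an array below the floor, among them EPPK1, DCN and P2RX6. The gaps (22Rv1 minus LNCaP) of these genes, -3.24, -2.49 and -2.24, were wider than some of those ranked.

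Alternatives were different cut-offs and floors, signals under 4 set to 4, centring, removal of a loess trend (fraction 0.3), scaling on poly-A controls, other choices of probe set and, chosen after seeing the data, scaling on hybridization controls. The tools were pandas 2.3.3, numpy 2.4.6 and statsmodels 0.14.6 in python 3.11.15, with matplotlib 3.10.9 for figures.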

Additional observations from a re-analysis of the deposited data

Results flagged for a closer look

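ABT1, a ribosome biogenesis factor, was lower with caffeine in 22Rv1, at -1.06, and higher in LNCaP, at 1.79. FNDC10 took opposite directions too, at -1.11 in 22Rv1 and 1.304 in LNCaP. ID3, an inhibitor of helix-loop-helix factors, was at -1.11 in 22Rv1 and 1.08 in LNCaP. Each line has 1 array per treatment, so these contrasts between lines were not tested. The 18S rRNA probe sets, which belong to no gene comparison, differed by 1.08 in 22Rv1, where the hybridization controls had a mean of 0.17, and by 5.45 in LNCaP.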

How the results depend on the processing

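Of the 812 higher and 435 lower probe sets, a cut-off of 1.3 left 417 and 153, a cut-off of 2 left 112 and 18, a floor of 4 in both arrays 538 and 262, and a floor of 6 in either array 448 and 175. Scaling on the poly-A controls gave 2087 higher and 111 lower, and scaling on the hybridization controls, chosen after seeing the data, gave 554 and 804. Without identifiers ending in _x_at or _s_at 224 probe sets were lower. Of the 342 higher and 131 lower genes, a cut-off of 1.3 left 155 and 36, poly-A scaling gave 976 and 30, and hybridization scaling gave 218 and 252. A floor of 4 in both arrays left 77 lower genes, and signals under 4 set to 4 left 87. No floor, centring, a loess trend, 1 gene symbol only, the mean of a gene's probe sets and a representative chosen on the 22Rv1 arrays kept both counts within 1.5 times.

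With a cut-off of 1.3 for both measures, 24.0% of higher probe sets and 26.5% of higher genes were also higher after caffeine. Among those at 4 or more on a LNCaP array, 35.2% of higher probe sets and 38.9% of higher genes were higher in LNCaP. Of ZNF genes 33.1% were higher with poly-A scaling, against 9.02% of all genes, and 31 of 281 with hybridization scaling, against 2.01%, both chosen for this list after seeing the data. For the 76 named genes past the cut-off, 5 of these settings were run. Only the mean of all probe sets could have changed a sign, and it did so in 0 of 23 genes. The other settings could not reverse a difference of at least 1, so the kept sign is no check there. The number that left the cut-off was 0 with the loess trend removed, 7 with poly-A scaling, 7 with hybridization scaling, added after seeing the data, 6 of 23 with the mean of all probe sets and 12 of 24 with signals under 4 set to 4.

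Signals near the floor have little room to fall, which limits the size of a difference there. No paired analysis was possible because each group has a single array with the same number and the comparison has no test.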
